A study of Mus musculus with 33 samples.

Results

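The regions described here are the places where the chromatin reader ING1 was listed in growing C2C12 myoblasts but not in the myotubes that form from them. A region was taken from the pooled myoblast list of ING1 if it lay on an autosome, shared at least 1 bp with a peak of myoblast replicate 1 or 2, and lay more than 500 bp from every ING1 peak of the pooled and the 3 replicate lists of myotubes. Of 8114 autosomal peaks in the pooled myoblast list, 4764 were supported by a replicate list and 556 met the whole rule, which is 11.7% of the supported sites. They are called myoblast-only sites below. The 4086 supported sites that shared at least 1 bp with a myotube ING1 peak are called kept sites, and the other 122 lay within the limit without sharing a base. The ING1 lists themselves chose the sites, so their presence in those lists is a description and carries no test.

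C2C12 is an established line of mouse muscle precursor cells. Low serum makes these myoblasts stop dividing and join into myotubes. ING1 was mapped by chromatin immunoprecipitation and sequencing (ChIP-seq) with an antibody against a Flag tag, in stable, puromycin-selected C2C12 cells that expressed Flag-tagged ING1 ectopically from a retroviral vector, in both states. Myoblasts with the tagged protein (2 samples) grew in 10% fetal bovine serum, and myotubes with it (3 samples) were taken after 96 h in 2% horse serum. The other samples used here carry no label of the tagged protein and were mapped with antibodies against the proteins themselves, so the cells used for ING1 and for the other factors may differ. They comprise Menin (2 samples), Wdr5 (3), MLL1 (2), LSD1 (1) and MLL3 (1) in growing myoblasts, and Sin3A (2) and LSD1 (1) in myotubes differentiated for 96 h. ING1 therefore has a list in both states, LSD1 has one as well, and the remaining factors were mapped in 1 state each. One label of the MLL1 samples names Menin, while their title and antibody name MLL1, which was followed here. Sin3A is placed in myotubes by its sample labels, which were followed, and in myoblasts by the text on the series' design. The series concerns how methylation of histone H3 at lysine 4 (H3K4) distributes the proteins that read it.

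ING1 carries a PHD finger that binds histone H3 trimethylated at lysine 4, a mark of active promoters, and is a subunit of Sin3 histone deacetylase complexes, in which Sin3A is the scaffold. The mark is written in part by complexes of the MLL family. Wdr5 is a core subunit of all of these complexes, Menin belongs to the MLL1 and MLL2 complexes, and MLL3 belongs to complexes that mono-methylate the same lysine, mainly at enhancers. LSD1 (Kdm1a) removes mono- and dimethylation from that lysine.

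The deposited lists hold the ends of each peak and no height or read count, so the depth behind a list is unknown, and absence from a list may be absence of binding or a signal under the authors' threshold. Replicate lists ran from 126 to 23164 nuclear peaks. For ING1 they held 428 and 5528 peaks in myoblasts and 2163, 2502 and 126 in myotubes, and the pooled lists held 8196 peaks in myoblasts and 9698 in myotubes. No gene annotation or genome sequence of build mm9, the build of these lists, was used, so regions are given by mm9 coordinates.

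Nearly all myoblast-only sites rest on 1 library, as kept sites do. Replicate 2 of myoblasts held 548 of the 556 sites, replicate 1 held 14, and 6 were in both. Of the kept sites, 4030 were in replicate 2, 386 in replicate 1 and 330 in both, so the part found in both replicates was 1.08% of the myoblast-only and 8.08% of the kept sites. Without myoblast replicate 2 the rule left 14 sites. The pooled myotube list set the count on the other side: with the myotube replicate lists alone, 2492 sites met the rule, and with the pooled list alone 563 did.

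The myoblast-only sites were short intervals, with a median width of 732 bp (quartiles 531 and 931 bp, range 18 to 2667 bp), against 928 bp (quartiles 680 and 1269 bp, range 22 to 5267 bp) for kept sites. Of them, 111 (19.96%) were wider than 1000 bp, against 1770 (43.3%) of kept sites. Myoblast-only peaks that no replicate list supported were left out by the rule and numbered 1274.

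Most of the sites lay far from any ING1 in myotubes. The distance to the nearest myotube ING1 peak had a median of 48883.5 bp and ran from 506 to 1245653 bp, with 173 sites (31.1%) more than 100 kb away. A second, smaller set of 56 sites lay within 2 kb of a myotube peak, and 25 sites lay within 1 kb of a kept site. The 3 sites just inside the limit were chr10:23067816-23068809 at 506 bp from a myotube peak, chr17:73266735-73267227 at 508 bp and chr3:88336620-88337037 at 524 bp. The 3 just outside were chr16:64852353-64852781 at 495 bp, chr11:102179507-102180140 at 488 bp and chr18:83081438-83081870 at 485 bp. All 6 lay at Menin, Wdr5 and Sin3A peaks and had no LSD1 in myotubes. The sites chr9:107536910-107537537 and chr17:35136698-35137154 also lay 524 bp from a myotube peak, and ties went by chromosome and start. Of these, the site on chromosome 9 had no Wdr5 peak and that on chromosome 17 no Sin3A peak. Myoblast-only sites were mostly solitary: the median distance to the next one was 598382 bp, and 34 had another within 1 kb, so those are not separate observations of a locus.

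**Figure D1:**
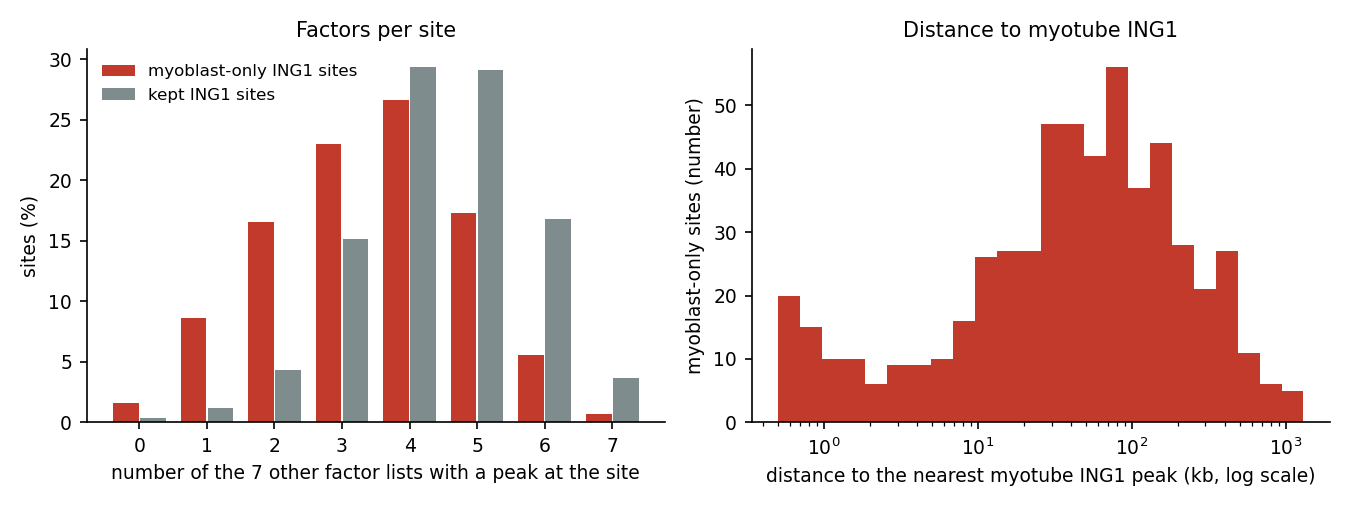
Left, percentage of myoblast-only sites (red) and kept sites (grey) against the number of the 7 other factor lists with a peak at the site. Right, number of myoblast-only sites against the distance to the nearest myotube ING1 peak in kb on a log scale. Of the myoblast-only sites 10.3% had none or 1 of the lists, against 1.52% of kept sites, and the distances form a main group around 10 to 500 kb and a small one under 2 kb.

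Menin, the subunit that tethers MLL1 to chromatin, was the most frequent partner. The pooled lists held 70050 nuclear peaks for Menin, 59248 for Wdr5, 14088 for Sin3A and 8892 for MLL1. Shares were not adjusted for list length, so their order across factors is a description. A Menin peak lay at 485 of 556 myoblast-only sites, or 87.2%, against 3841 of 4086 kept sites, or 94.0%, and 93.2% of all supported ING1 sites. The difference was -6.77 percentage points, with a 95% interval from -9.92 to -4.00 (square-and-add combination of the 2 exact binomial intervals). Such intervals cover counting error only, and sites are not replicates. In the single Menin lists the share was 73.4% for replicate 1 and 71.0% for replicate 2 at myoblast-only sites, against 81.4% and 80.7% at kept sites. Both lists gave the lower share at myoblast-only sites, with a mean difference of -8.82 ± 1.17 points (SD, n = 2; exact sign-flip permutation p = 0.5, the smallest that 2 lists allow; adjusted p = 0.667). The Menin peaks met were long compared with the ING1 sites, with a median of 2304 bp at myoblast-only and 2688 bp at kept sites. Menin peaks of 5 kb or more met 53 of the 485 myoblast-only sites with Menin (10.9%). At kept sites with Menin they met 460 of 3841 (12.0%).

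Wdr5, the core subunit shared by the MLL complexes, showed a wider gap. It lay at 438 myoblast-only sites (78.8%) and 3787 kept sites (92.7%), against 90.9% of all supported ING1 sites. That is a difference of -13.9 points (interval -17.6 to -10.5). The 3 replicate lists gave 39.7%, 26.6% and 25% at myoblast-only sites, against 62.1%, 50.6% and 52.4% at kept sites. The values of the classes did not overlap, and the mean difference was -24.6 ± 2.62 points (SD, n = 3; exact sign-flip permutation p = 0.25, the smallest possible; adjusted p = 0.667). The gap in the replicate lists was larger than in the pooled Wdr5 list, and in either case its sign was the same.

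MLL1, the methyltransferase that Menin binds, did not show such a gap. An MLL1 peak lay at 246 myoblast-only sites (44.2%) and 1787 kept sites (43.7%), with 43.9% among all supported sites, and the interval of the difference ran from -3.94 to 5.02 points. The share was 28.4% and 4.32% in MLL1 replicates 1 and 2 at myoblast-only sites, against 27.7% and 5.78% at kept sites, so the lists pointed in opposite directions (mean difference -0.349 ± 1.57 points, SD, n = 2; exact sign-flip permutation p = 1; adjusted p = 1). Myoblast-only sites with MLL1 had a median width of 795.5 bp, and those without it 675.5 bp. Among sites of like width, compared within 10 classes, MLL1 lay at 44.2% of myoblast-only sites and at 39.2% of kept sites, higher at myoblast-only sites in 8 of 10 classes, but several alternatives turned the sign of the unadjusted difference. Almost every MLL1 site had Menin as well, at 236 of 246 myoblast-only sites with MLL1 (95.9%) and 1771 of 1787 such kept sites (99.1%). MLL1 without Menin was found at 10 myoblast-only sites (1.80% of all 556) and 16 kept sites (0.392% of all 4086).

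MLL3 was listed at few of the sites, although its list is the longest, with 218204 peaks. Its peaks met 94 myoblast-only sites (16.9%) and 813 kept sites (19.9%), against 19.6% of supported sites, and the interval of the difference ran from -6.26 to 0.600 points. Within classes of width the difference was 0.235 points. The MLL3 list covered 9.89% of the centres of myoblast-only sites, 10.3% of the positions 3 kb away and 15.6% of those 5 kb away, so coverage was lower at the centre than 5 kb away. At kept sites it covered 9.62% of centres, 13.0% at 3 kb and 15.7% at 5 kb. MLL3 was also the one myoblast list that was more frequent where Menin was missing: it met 75 of 485 myoblast-only sites with Menin (15.5%) and 19 of 71 without (26.8%).

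**Figure D2:**
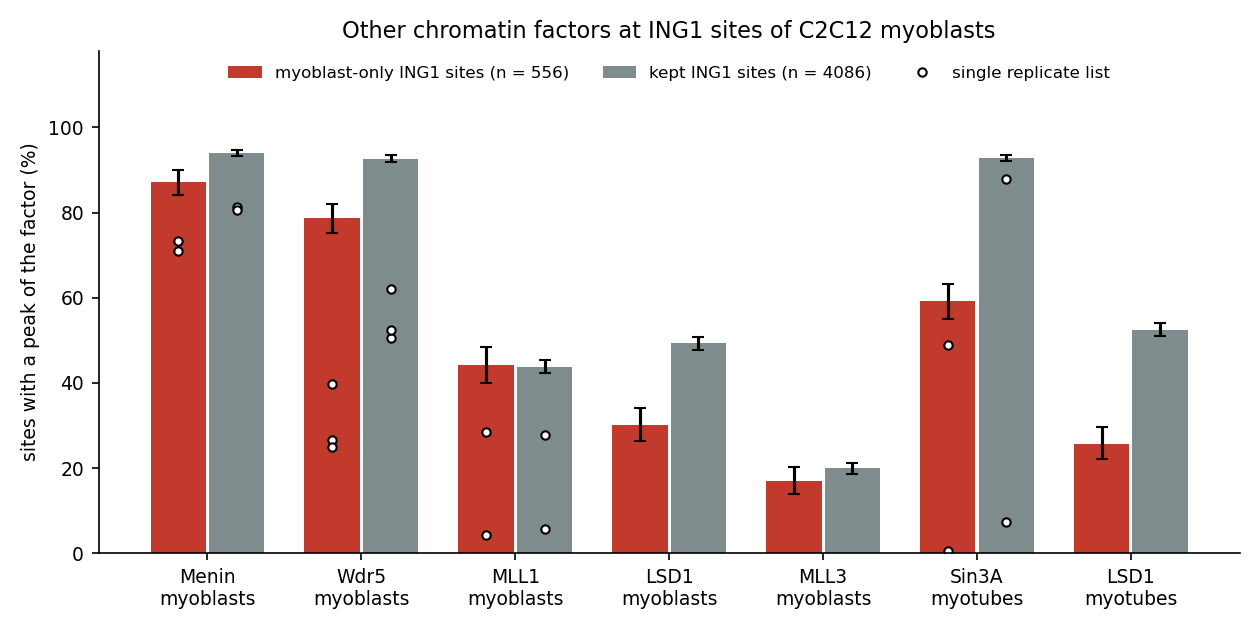
Percentage of myoblast-only sites (red) and kept sites (grey) that share at least 1 bp with a peak of each factor. Bars are pooled or single lists with exact 95% binomial intervals, and open circles are single replicate lists. The red bars run from 87.2% for Menin to 16.9% for MLL3, the widest gap between the classes is that for Sin3A, and the MLL1 bars are level.

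Sin3A, the scaffold of the deacetylase complex to which ING1 belongs, marked the widest gap, and it was mapped in myotubes, where these sites have no listed ING1. The classes are split by the myotube ING1 peaks, and LSD1 of myotubes had the next widest gap (-26.8 points). Sin3A has no myoblast list, so the factor and the state of the cells cannot be told apart in this comparison. It lay at 329 myoblast-only sites (59.2%) and 3794 kept sites (92.9%), against 88.4% of all supported ING1 sites. The difference was -33.7 points (interval -38.0 to -29.5) and -32.1 points within classes of width, where it had the same sign in 10 of 10 classes. On each of the 19 autosomes the share was lower at myoblast-only than at kept sites. Sin3A replicate 1 lay at 48.9% of myoblast-only sites, against 87.8% of kept sites. In replicate 2, with 430 peaks in all, these values were 0.540% and 7.37%. Both lists were lower at myoblast-only sites (mean difference -22.9 ± 22.7 points, SD, n = 2; exact sign-flip permutation p = 0.5, the smallest possible; adjusted p = 0.667), but the size of the gap rests on replicate 1, and in replicate 2 alone it was -6.83 points. Where both were present, the Sin3A peaks were shorter at myoblast-only sites, with a median of 827 bp against 1098 bp at kept sites.

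In the pooled Sin3A list 59.2% of the sites had a peak, and with the union of the 2 replicate lists 48.9% did. The 329 sites with Sin3A are set beside the 227 without it, as a description. Wdr5 lay at 85.1% of those with and 69.6% of those without Sin3A, Menin at 90.9% and 81.9%, MLL1 at 48.0% and 38.8%, and LSD1 of myoblasts at 35.6% and 22.0%. MLL3 went the other way, at 14.3% and 20.7%. The sites with Sin3A were also wider, with a median of 774 bp against 625 bp. Of the myoblast-only sites, 134 (24.1%) had both Menin and Wdr5 in myoblasts and no Sin3A in myotubes, against 205 kept sites (5.02%).

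**Figure D3:**
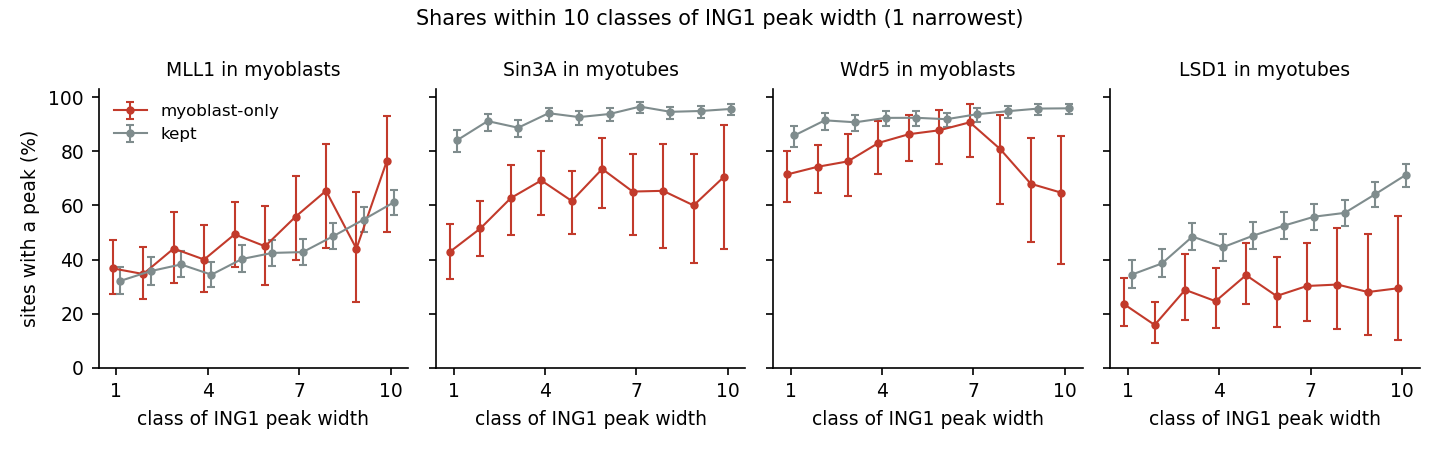
Percentage of myoblast-only sites (red) and kept sites (grey) with a peak of the named factor, in 10 classes of ING1 peak width from the narrowest (1) to the widest (10), with exact 95% binomial intervals. The class with fewest holds 17 myoblast-only sites. Red lies below grey in every class for Sin3A, Wdr5 and LSD1 of myotubes, and above grey in 8 of 10 classes for MLL1.

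LSD1, the demethylase, was listed at fewer of these sites in both states. In myoblasts it lay at 167 myoblast-only sites (30.04%) and 2013 kept sites (49.3%), with 46.5% among supported sites, a difference of -19.2 points (interval -23.3 to -14.9). In myotubes it lay at 143 myoblast-only sites (25.7%) and 2145 kept sites (52.5%), with 48.5% among supported sites, a difference of -26.8 points (interval -30.7 to -22.6). Each state had 1 LSD1 list, so no spread between replicates stands behind these values. The LSD1 list of myoblasts held 4442 nuclear peaks and that of myotubes 16504. Counts of sites listed in 1 state or in both therefore compare lists of unlike length, and gain or loss of LSD1 was not tested. Within classes of width the differences were -12.5 and -20.8 points, with the same sign in 10 of 10 classes for each. Of the 167 myoblast-only sites with LSD1 in myoblasts, 63 were also listed for LSD1 in myotubes (37.7%), against 1230 of 2013 kept sites (61.1%). A further 80 myoblast-only sites (14.4%) had LSD1 in myotubes alone, against 915 kept sites (22.4%). It was listed in neither state at 309 myoblast-only sites (55.6%), against 28.3% of kept sites. Of the 143 myoblast-only sites with LSD1 in myotubes, 116 (81.1%) also had Sin3A, against 2087 of 2145 kept sites (97.3%). Over the 14 sites left without ING1 myoblast replicate 2, the difference from kept sites was -35.3 points for LSD1 of myoblasts, -13.2 for LSD1 of myotubes, -22.6 for Menin and 15.6 for MLL1.

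Each factor except MLL3 was most frequent at the centres of the sites. Menin reached furthest, covering 86.3% of the centres of myoblast-only sites and 33.7% of positions 2 kb away. Wdr5 covered 75.5% and 11.2% at these positions, MLL1 37.8% and 5.40%, and Sin3A of myotubes 50.9% and 2.52%. At kept sites the MLL1 values were close to those of myoblast-only sites, at 35.6% of centres and 4.58% at 2 kb, and the Sin3A values were 86.7% and 4.47%. LSD1 of myotubes covered 19.2% of the centres of myoblast-only sites and 1.80% of positions 2 kb away, against 40.8% and 4.63% at kept sites.

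**Figure D4:**
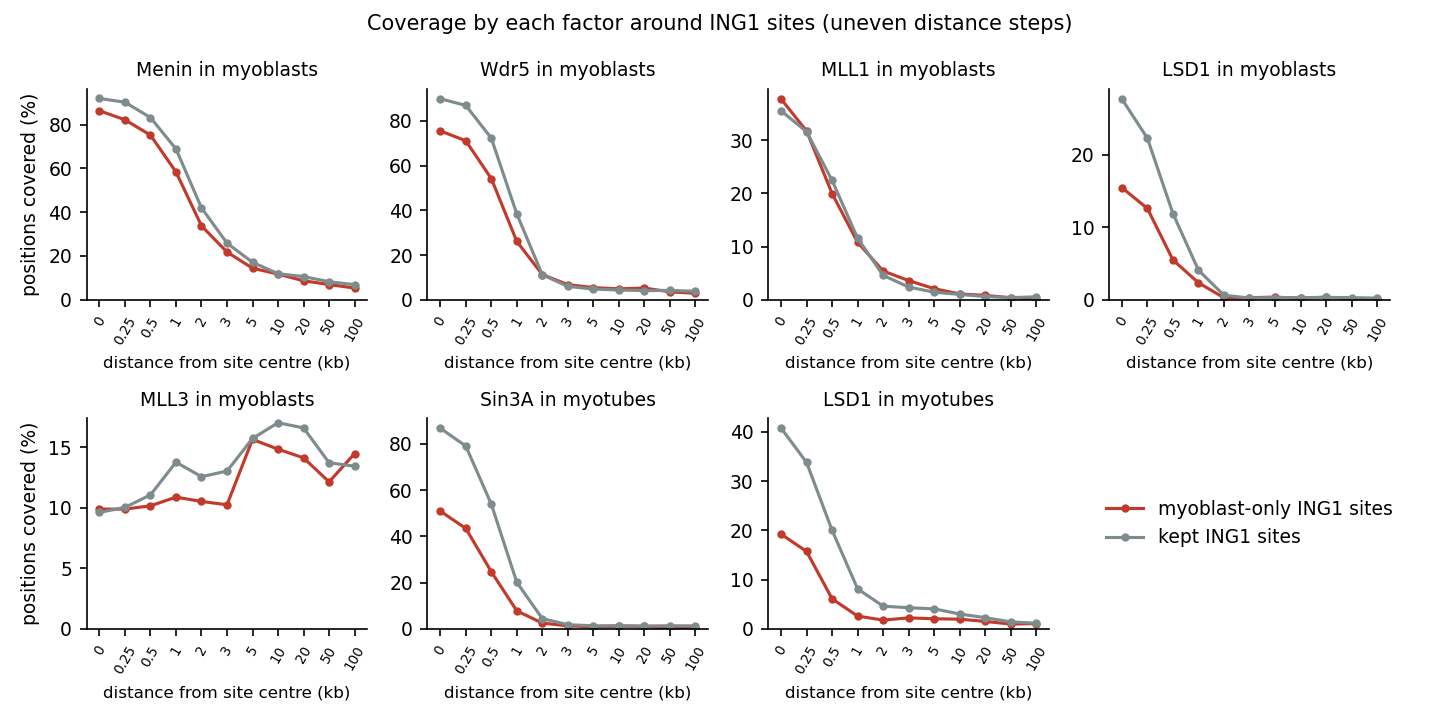
Percentage of positions covered by the peaks of each factor at increasing distance from the centre of the ING1 site in kb, both sides averaged, for myoblast-only sites (red) and kept sites (grey). The distance steps are uneven and the vertical scales differ. Sin3A covers 50.9% of myoblast-only and 86.7% of kept centres, the MLL1 curves start at 37.8% and 35.6%, and MLL3 is the one factor without a maximum at the centre.

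By combination, 392 myoblast-only sites (70.5%) had both Menin and Wdr5, against 88.1% of kept sites, and 25 (4.50%) had neither, against 1.40%. The commonest full set was Menin, Wdr5, MLL1 and Sin3A without LSD1 or MLL3, at 54 sites (9.71%), against 7.73% of kept sites. Menin with Wdr5 and nothing else came to 44 myoblast-only sites (7.91%), against 1.32% of kept sites. Menin alone was found at 24 (4.32%), against 0.294%. At the other end, 4 myoblast-only sites (0.719%) had all 7 lists, against 149 kept sites (3.65%). The mean number of lists was 3.42 at myoblast-only sites and 4.45 at kept sites.

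The 6 sites found in both myoblast replicates are the best supported. At chr19:7113765-7115225, a site of 1461 bp was fully covered by Menin and Wdr5, had LSD1 of myoblasts on 33.9% and Sin3A on 47.0% of its length, and had no MLL1 and no LSD1 in myotubes. At chr11:5440928-5442209, Menin, Wdr5 and MLL1 covered the whole site, Sin3A 86.3% and LSD1 of myotubes 42.5%. The site chr4:94280885-94281972 was fully covered by Menin, with Wdr5 on 91.6%, MLL1 on 41.8% and Sin3A on 49.4% of it. The site chr12:109416442-109417479 lay 623 bp from a myotube ING1 peak, with Menin on all of it and Sin3A on 99.7%. At chr2:157104796-157105676, Menin, Wdr5 and Sin3A covered the whole site and LSD1 of myotubes 99.9%, without MLL1. The sixth, chr17:36368207-36368547, stood apart: it was 341 bp wide, and LSD1 of myotubes, on 19.6% of it, was the one other factor listed. Menin, Wdr5 and Sin3A were each listed at 83.3% of these 6 sites, against 94.2%, 95.8% and 94.8% of the 330 kept sites found in both replicates. MLL1 (50.0% against 51.2%) and LSD1 of myoblasts (33.3% against 60.3%) were also lower at the 6 sites. LSD1 of myotubes (66.7% against 65.5%) and MLL3 (33.3% against 24.2%) were higher.

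The combination of Menin, Wdr5, MLL1 and LSD1 in myoblasts was found at 76 myoblast-only sites (13.7%), against 894 kept sites (21.9%). The 4 widest of the 76 lay 28218 to 1007055 bp from myotube ING1. The widest myoblast-only site of all, chr10:31327168-31329834 (2667 bp), lay 1007055 bp from the nearest myotube ING1 peak. Menin covered all of it, Wdr5 99.5%, MLL1 82.8% and LSD1 of myoblasts 23.3%, and in myotubes Sin3A covered 98.6% and LSD1 42.6%. The next, chr1:90596647-90599235, was 367716 bp from myotube ING1 and had MLL3 on 58.6% of it, where the site on chromosome 10 had MLL3 on 3.07%. At chr4:57580476-57582853, Wdr5 covered 46.9%, MLL1 35.0% and Sin3A 51.8%, and LSD1 was listed in myoblasts (14.4%) but not in myotubes. The fourth, chr8:8659415-8661282, was fully covered by Menin, Wdr5 and MLL1, with Sin3A on 34.3%. Both Sin3A and LSD1 in myotubes were listed at 116 myoblast-only sites (20.9%), against 2087 kept sites (51.1%). Of the 4 sites above, those on chromosomes 10, 1 and 8 were also the 3 widest of these 116. The fourth of that set, chr1:192848654-192850444, had MLL1 on 79.2%, Sin3A on 59.7% and LSD1 of myotubes on 31.5%.

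In 9 myoblast-only sites (1.62%) none of the 7 other lists had a peak, against 14 kept sites (0.343%). The widest were chr11:117877395-117878147, chr1:135696979-135697674, chr2:137151204-137151819 and chr3:114715355-114715919. They measured 753, 696, 616 and 565 bp, lay 46801 to 701698 bp from myotube ING1, and were present in replicate 2 of myoblasts alone.

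The sites were also set out by their distance to myotube ING1, in classes of 56 sites within 2 kb, 50 between 2 and 10 kb, 177 between 10 and 50 kb, 100 between 50 and 100 kb and 173 beyond 100 kb. From the nearest class to the farthest, Menin lay at 94.6%, 76.0%, 87.0%, 89.0% and 87.3% of the sites. Sin3A lay at 42.9%, 54.0%, 66.1%, 58.0% and 59.5%, with its highest share at 10 to 50 kb. MLL1 lay at 42.9%, 34.0%, 36.2%, 49.0% and 53.2%. None of these 3 factors changed in one direction across the classes, and neither did Wdr5, MLL3 or LSD1 of myotubes. LSD1 of myoblasts rose at each step, from 26.8% in the nearest class to 31.8% in the farthest. Its exact intervals in the nearest and farthest classes overlapped (15.8 to 40.3 and 24.9 to 39.3). No order was tested. The exact intervals of the nearest and farthest classes overlapped for Sin3A (29.7 to 56.8 and 51.8 to 66.9) and for MLL1 (29.7 to 56.8 and 45.5 to 60.8). The median width was 525.5 bp in the nearest class and 771 bp in the farthest.

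Sites of ING1 in myotubes only, chosen by the mirrored rule, numbered 375. This comparison was chosen after seeing the data. Myoblast-only sites had more Menin and MLL1 and less Wdr5 and Sin3A than these. MLL1 lay at 44.2% of myoblast-only and 22.4% of myotube-only sites, Menin at 87.2% and 79.2%, Wdr5 at 78.8% and 84.0%, and Sin3A at 59.2% and 82.7%. Every replicate list had the same direction: Menin was 15.9 ± 0.232 points higher at myoblast-only sites (SD, n = 2), MLL1 9.70 ± 9.88 points higher (SD, n = 2), while the mean difference was -12.2 ± 1.87 points for Wdr5 (SD, n = 3) and -15.5 ± 15.2 points for Sin3A (SD, n = 2). None of these can pass a test: the exact sign-flip permutation p-values were 0.25 for Wdr5 and 0.5 for the others, each the smallest possible, with an adjusted p of 0.5. LSD1 of myoblasts lay at 30.04% and 29.9%, and LSD1 of myotubes lay at 25.7% and 31.7%. Menin, Wdr5, MLL1 and MLL3 were mapped in myoblasts and Sin3A in myotubes, so the factor and the state of the cells cannot be told apart.

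Compared with the 1274 myoblast-only peaks that no replicate list supported, the 556 sites were listed more often for 6 of the 7 factors, and MLL3 was level. The unsupported peaks were narrower, with a median of 529 bp. Menin lay at 87.2% against 65.8%, Wdr5 at 78.8% against 55.7%, MLL1 at 44.2% against 22.5%, LSD1 of myoblasts at 30.04% against 8.48%, LSD1 of myotubes at 25.7% against 9.26%, Sin3A at 59.2% against 29.98% and MLL3 at 16.9% against 16.2%. None of the 7 lists had a peak at 16.6% of the unsupported peaks.

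The sites were spread over all 19 autosomes, from 12 on chromosome 12 to 54 on chromosome 2. As a share of supported ING1 sites they were most frequent on chromosome 9 (41 of 234, 17.5%, exact interval 12.9 to 23.01) and chromosome 7 (38 of 217, 17.5%, interval 12.7 to 23.2). They were least frequent on chromosome 8 (18 of 316, 5.70%, interval 3.41 to 8.85) and chromosome 12 (12 of 185, 6.49%). On chromosome 7 Sin3A lay at 42.1% and MLL1 at 15.8% of the myoblast-only sites, where kept sites of that chromosome had 89.6% and 28.3%. Chromosome 18 had a lower Sin3A share, at 38.9% of its myoblast-only sites against 92.8% of its kept sites. Shares by chromosome were computed for Sin3A and MLL1 alone. For MLL1 the share was lower at myoblast-only than at kept sites on 10 of 19 autosomes, and on chromosome 16 it was 65.0% against 36.6%.

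**Figure D5:**
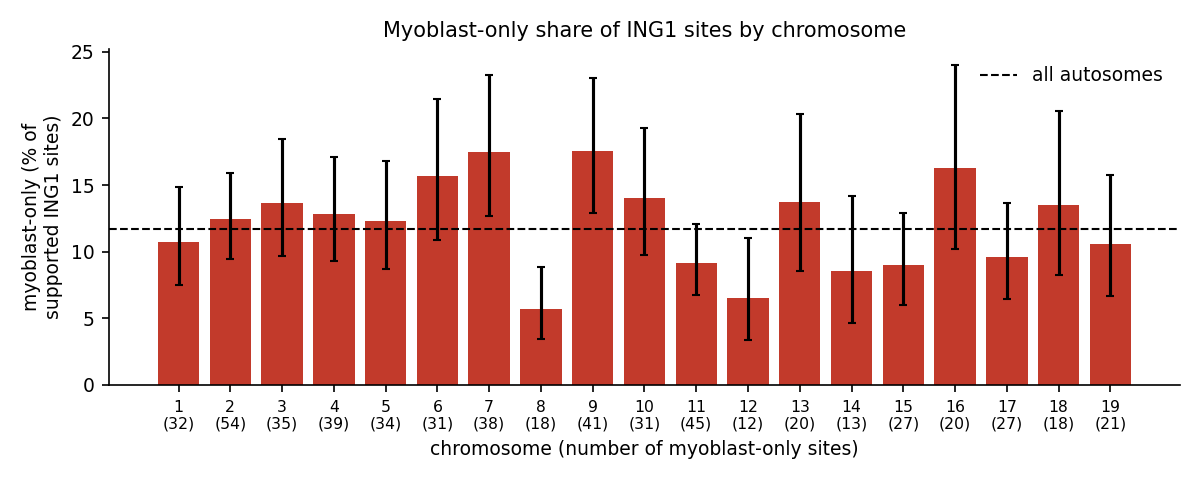
Myoblast-only sites as a percentage of the replicate-supported ING1 sites of each autosome, with exact 95% binomial intervals and the number of myoblast-only sites in brackets. The dashed line is the value over all autosomes, 11.7%. Chromosomes 7 and 9 reach 17.5%, and chromosome 8 has 5.70%.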

How the data were processed

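Of 33 labelled samples, the 17 ChIP samples with a deposited list were used. The inputs and the RNA-seq were not analysed here. The deposited values are peak boundaries in base pairs on build mm9, which the submitters' processing notes name beside Bowtie 0.12.9, SAMtools 0.1.19 and bedtools 2.17.0. The sources used here do not give the peak caller, its threshold or how replicates were pooled. Starts were taken as 0-based and are printed 1-based. Overlaps were computed with Python 3.11.15 and NumPy 2.4.6 and tested on simulated data. Intervals are exact binomial at 95% (SciPy 1.17.1). Replicate lists were compared by an exact two-sided sign-flip permutation test over lists, with Benjamini-Hochberg adjustment over the 4 factors that have replicates. Regions were named by rule: the 6 widest sites in both myoblast replicates, the 4 widest with Menin, Wdr5, MLL1 and LSD1 of myoblasts, with none of the 7 lists, and with Sin3A and LSD1 of myotubes, and 3 on each side of the distance limit. Planned gene lists and motifs need an mm9 annotation and genome, which were not used here. No label states that replicates are separate cultures, so p-values measure only the spread between these lists, which may be technical. The sites, lists and comparisons were chosen with earlier results of these data known.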

Additional observations from a re-analysis of the deposited data

Results flagged for a closer look

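Chromosome X, which the rule leaves out, is data outside the comparisons above. When the same ING1 lists were read there, 9 of 26 replicate-supported myoblast sites (34.6%) lay more than 500 bp from every myotube ING1 peak. The ING1 lists chose these sites, so the count is a description. The difference from the autosomal 11.7% was not tested.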

How the results depend on the processing

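The number of myoblast-only sites, 556, was 678 with a distance over 0 bp, 500 over 2000 bp and 450 over 10000 bp. It was 6 with support by both myoblast replicates, 1830 with no replicate support, 282 in the wider 50% of the pooled list and 2492 with the myotube replicate lists alone. Leaving out a replicate gave 548 (without ING1 myoblast replicate 1) or 14 (without replicate 2), and, with the myotube replicate lists alone, 2944, 3177 and 2509 without ING1 myotube replicate 1, 2 and 3. Factor shares were not computed for the rules with no replicate support or with the wider 50% of the pooled list. Nor were they computed for the pooled myotube list alone or for the myotube replicate lists alone. Under the alternatives run for shares, the differences for Menin, Wdr5 and Sin3A kept their sign. They ranged from -22.6 to -5.04, -28.1 to -11.7 and -41.8 to -6.83 points. The values -28.1 and -6.83 come from unions of replicate lists without Wdr5 replicate 1 and without Sin3A replicate 1. The MLL1 difference of 0.510 points turned to -0.713 with an overlap of 50% of the shorter peak, -0.569 within 500 bp, -1.21 with support by both replicates (6 sites), -0.0753 without ING1 myoblast replicate 1 and -0.335 with 1 site per 5000 bp, and was 15.6 without ING1 myoblast replicate 2 (14 sites). With the union of the MLL1 replicate lists in place of the pooled list it was 0.225, and -1.46 when MLL1 replicate 1 was also left out. The MLL3 difference of -2.99 turned to 0.235 within classes of width and 9.09 with support by both replicates. LSD1 of myoblasts moved from -19.2 to -12.5 within classes of width and -27.0 with support by both replicates, and ranged from -35.3 to -19.2 when a replicate was left out. LSD1 of myotubes moved from -26.8 to -20.8 within classes of width, turned to 1.21 with support by both replicates, and ranged from -27.0 to -13.2. The cause of these shifts was not tested, beyond the small number of sites that support by both replicates, or by replicate 1 alone, leaves. The limits over 10000 bp and of 1 site per 5000 bp were chosen after seeing the data. No paired analysis was possible because no test compared groups of samples that share replicate numbers. The sign-flip tests compare classes of sites within the same list, not samples paired by number. Depth is unknown, so sites missing from the myotube lists may lie under the authors' threshold.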
